A study of Mus musculus with 12 samples.

Results

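Genes of the interleukin-1 (IL-1) family and its receptors, 10 of the 21247 genes in the count table, were described in periocular (eye-region) skin of filaggrin-deficient mice with and without MyD88. They were listed by name, with earlier results of these data known. They comprised the agonist ligands Il1a, Il1b, Il18 and Il33, the antagonist Il1rn, the receptor chains Il1r1, Il1rap, Il1rl1 and Il18r1, and the decoy receptor Il1r2. All 10 passed the filter on low counts, with 24 to 2662 counts per library.

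The 4 ft/ft and 4 ft/ftMyD88-/- libraries were compared. The ft/ft mice carried a spontaneous point mutation that abolishes filaggrin, a structural protein of the cornified layer. The ft/ftMyD88-/- mice came from an in-house cross of ft/ft with MyD88-deficient animals, so both groups lacked filaggrin and the whole body of the double mutants was intended to lack MyD88. All were labelled as 6-week-old female BALB/c mice kept under the same specific pathogen-free conditions. The 4 wild-type samples were not analysed here, so no value below has a filaggrin-sufficient reference.

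Several facts of the libraries bear on every value below. Total counts per library were 18941705 to 29255129 in ft/ft and 15802957 to 27037997 in ft/ftMyD88-/-. The ft/ft libraries did not match their label of female: Xist, the RNA that silences an X chromosome in females, had 0 to 1 counts there and 567 to 1964 counts in ft/ftMyD88-/-, whereas Y-linked genes had at least 321 counts in ft/ft and at most 11 in ft/ftMyD88-/-. Genotype and sex therefore cannot be told apart in any comparison. The paper also reports spontaneous inflammation and a thicker epidermis in periocular skin of all ft/ftMyD88-/- mice by this age. It saw no inflammation in ft/ft mice. Every comparison is thus also one of inflamed with visibly uninflamed skin, which cannot be told apart from genotype or sex. Myd88 itself did not fall: it had 41.2 ± 7.29 CPM (the usual per-library count rate, on TMM-scaled library totals) in libraries labelled ft/ftMyD88-/- and 30.7 ± 4.74 CPM in ft/ft (SD, n = 4 each), and these gene counts hold no information on single exons. These Myd88 values are of RNA. For the protein, the paper reports immunofluorescence that found MyD88 in the epidermis of ft/ft but not of ft/ftMyD88-/- mice, with significantly lower intensity in the latter. Tmem79 is the gene of the matted mutation, which the paper says its ft/ft line lacks. It averaged 59.2 ± 2.92 CPM in ft/ft and 16.4 ± 2.10 CPM in ft/ftMyD88-/- (SD, n = 4 each), without overlap. Flg, the filaggrin gene, averaged 103 ± 69.8 and 242 ± 39.5 CPM, and its libraries overlapped. The reason for the Tmem79 difference was not tested. Keratinocyte, fibroblast and sebocyte markers were abundant in all 8 libraries, as were skeletal muscle markers, whose summed level was 9339 to 12710 CPM in ft/ft and 3667 to 6982 CPM in ft/ftMyD88-/-. The libraries were of bulk skin, in which fewer cells of a type and less RNA per cell cannot be told apart.

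IL-1 family cytokines are alarm signals of barrier tissues. IL-1 alpha, IL-18 and IL-33 are held in keratinocytes and other resident cells, whereas IL-1 beta is made largely by activated myeloid cells as a precursor that inflammasome caspases cleave. Each agonist binds a first receptor chain, which IL-1 alpha and IL-1 beta share, and a second chain joins. The paired intracellular domains recruit the adaptor MyD88, which passes the signal through IRAK kinases to NF-kB and MAP kinases. IL-1 receptor antagonist occupies the receptor without signalling, and the type 2 IL-1 receptor binds IL-1 but has no signalling domain.

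Against this background, Il1b rose 8.02-fold in ft/ftMyD88-/- skin and Il1r1, the signalling receptor for IL-1 alpha and IL-1 beta, rose 1.35-fold. Il1r2, the decoy, fell by 0.82 on the log2 scale and Il1rap, the shared second chain, fell by 0.59. Thus 2 of the 10 genes were called higher and 2 lower by edgeR's quasi-likelihood test at an adjusted p under 0.05, against 10.9% and 12.3% of all 20454 genes tested, and 23.3% in either direction. The other 6 (Il1a, Il1rn, Il18, Il33, Il1rl1 and Il18r1) did not pass. The median log2 fold change of the 10 genes was -0.02, beside 0.013 over all genes tested. In 5 of the 10 the libraries of the groups did not overlap, which was so for 26.7% of all genes.

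**Figure D1:**
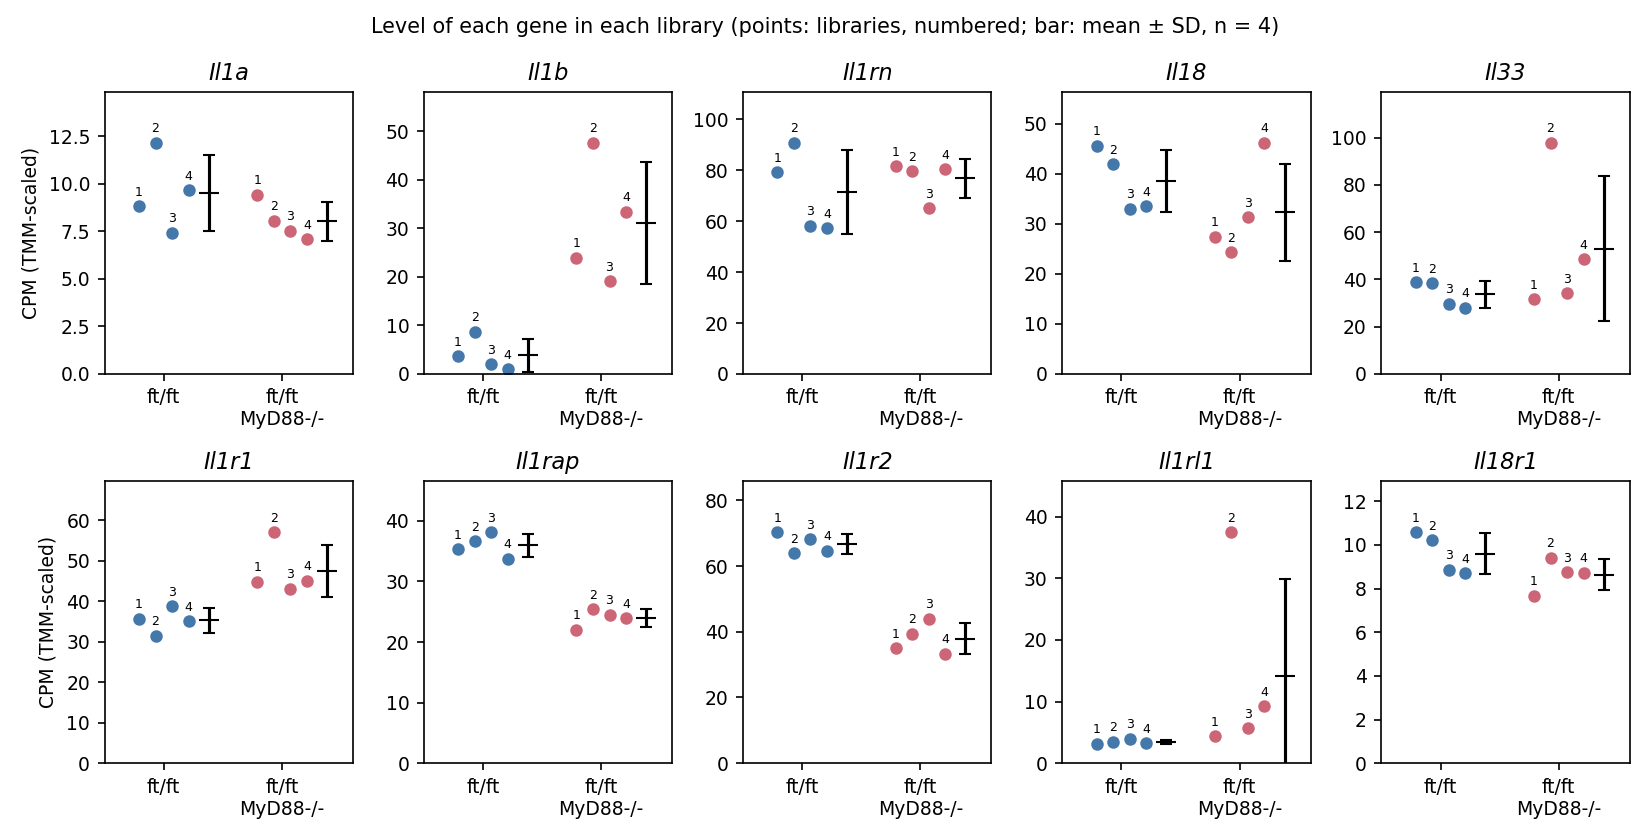
Level of each of the 10 genes in each library, in TMM-scaled CPM on a linear axis from 0; points are libraries labelled with their replicate number, and the bar beside each group is its mean ± SD (n = 4; the lower arm for Il1rl1 in ft/ftMyD88-/- runs past 0). The groups are apart for Il1b, Il1r1, Il1rap, Il1r2 and Il1rl1, and ft/ftMyD88-/- replicate 2 stands above the rest of its group for Il33, Il1r1 and Il1rl1.

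Il1b encodes the agonist IL-1 beta. It lies on the minus strand of chromosome 2 (chr2:129364569-129371164, GRCm38.p6), 54.4 kb from its neighbour Il1a (chr2:129299609-129310186). Il1b had 3.64, 8.69, 1.95 and 0.92 CPM in ft/ft replicates 1 to 4 and 24.0, 47.6, 19.1 and 33.4 CPM in ft/ftMyD88-/-. Every ft/ftMyD88-/- library was above every ft/ft library, and in each group replicate 2 was the highest. The group means were 3.80 ± 3.45 and 31.0 ± 12.5 CPM (SD, n = 4 each). The log2 fold change was 3.00 (SE 0.696, adjusted p = 0.0250, edgeR; 95% interval 1.33 to 4.68).

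The call for Il1b depended on single libraries. The adjusted p rose above 0.05 in 4 of the 8 fits that each left out a library: it was 0.0663 without replicate 1 or replicate 3 of ft/ft, 0.0508 without ft/ftMyD88-/- replicate 2 and 0.0588 without ft/ftMyD88-/- replicate 4, with log2 fold changes of 2.67 to 3.84 over all 8 fits. Without ft/ft replicate 2, the ft/ft library with the most Il1b, the log2 fold change was 3.84. The study also measured Il1b and Il1a by quantitative PCR in periocular skin of these genotypes. It reported no significant difference for either gene. A gene on the opposite strand, Il1bos, overlaps Il1b, and whether reads were counted by strand is not given in the sources used here; Il1bos had only 5 to 21 counts per library.

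Il1a encodes IL-1 alpha, the keratinocyte agonist of the same receptor. It had 8.83, 12.1, 7.42 and 9.66 CPM in ft/ft and 9.42, 8.05, 7.52 and 7.07 CPM in ft/ftMyD88-/-. The libraries of the groups overlapped, and the difference was within their spread (log2 fold change -0.25, 95% interval -0.60 to 0.10, adjusted p = 0.286, edgeR). Its interval and that of Il1b did not meet.

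Il1rn encodes the IL-1 receptor antagonist (chr2:24336860-24351491, GRCm38.p6). It had 79.3, 90.8, 58.2 and 57.3 CPM in ft/ft and 81.7, 79.7, 65.2 and 80.5 CPM in ft/ftMyD88-/-, so the groups overlapped. The log2 fold change was 0.10 (95% interval -0.22 to 0.43, adjusted p = 0.659, edgeR). Gene counts did not separate its secreted and intracellular forms.

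Il1b and Il1rn were set side by side as agonist and antagonist, and Il33 as the alarmin with the widest spread in ft/ftMyD88-/-; the genomic bases just ahead of their starts are shown for these 3. The sequences are from RefSeq on GRCm38.p6, written 5′ to 3′ on the gene's strand and kept to bases outside the annotated gene, with capitals marking TATAAA or TGANTCA (the AP-1 site) on either strand.
Il1b (chr2:129371165-129371389, minus strand): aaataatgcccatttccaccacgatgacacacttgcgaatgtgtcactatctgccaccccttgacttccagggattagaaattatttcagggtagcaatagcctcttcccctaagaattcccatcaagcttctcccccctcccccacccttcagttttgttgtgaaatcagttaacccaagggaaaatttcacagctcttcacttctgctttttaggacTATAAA
Il1rn (chr2:24336610-24336859, plus strand): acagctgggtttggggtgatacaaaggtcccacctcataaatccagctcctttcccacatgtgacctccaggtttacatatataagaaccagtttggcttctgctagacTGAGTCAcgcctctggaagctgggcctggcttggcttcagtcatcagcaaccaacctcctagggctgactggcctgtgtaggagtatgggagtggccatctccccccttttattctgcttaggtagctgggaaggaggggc
Il33 (chr19:29924863-29925112, plus strand): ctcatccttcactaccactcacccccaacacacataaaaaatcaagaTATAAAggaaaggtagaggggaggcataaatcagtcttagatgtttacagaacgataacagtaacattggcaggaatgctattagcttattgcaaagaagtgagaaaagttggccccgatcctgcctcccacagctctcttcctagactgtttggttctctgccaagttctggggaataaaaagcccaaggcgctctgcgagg
The Il1b stretch ended in TATAAA, which began 31 bases ahead of the start. The Il1rn stretch held an AP-1 match 141 bases ahead of its start, and the Il33 stretch held TATAAA 203 bases ahead. All 10 genes matched the RefSeq promoter table, with 17 starts among them. TATAAA was in the 250 bases ahead of 5 of those starts, belonging to 4 genes, and in 12.4% of 32851 promoters. TGANTCA was at 2 starts, those of Il1a and Il1rn, and in 6.75% of promoters, whereas GGGANTTTC, an NF-kB-type motif, was at 0 of the 17 starts and in 0.941% of promoters. The motifs differ in letters and did not overlap in the stretches shown.

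Within a library, the balance of antagonist to agonist differed between the groups. The log2 ratio of Il1rn to Il1b counts was 4.44, 3.38, 4.88 and 5.93 in ft/ft and 1.77, 0.74, 1.77 and 1.27 in ft/ftMyD88-/-. No library of either group fell in the range of the other, and Il1rn counts were 10.4 to 61.0 times those of Il1b in ft/ft but 1.68 to 3.41 times in ft/ftMyD88-/-. The means were 4.66 ± 1.06 and 1.39 ± 0.49 (SD, n = 4 each), a difference of -3.27. The ratio of Il1rn to Il1a overlapped between the groups (2.90 ± 0.25 and 3.26 ± 0.19 on the log2 scale).

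**Figure D2:**
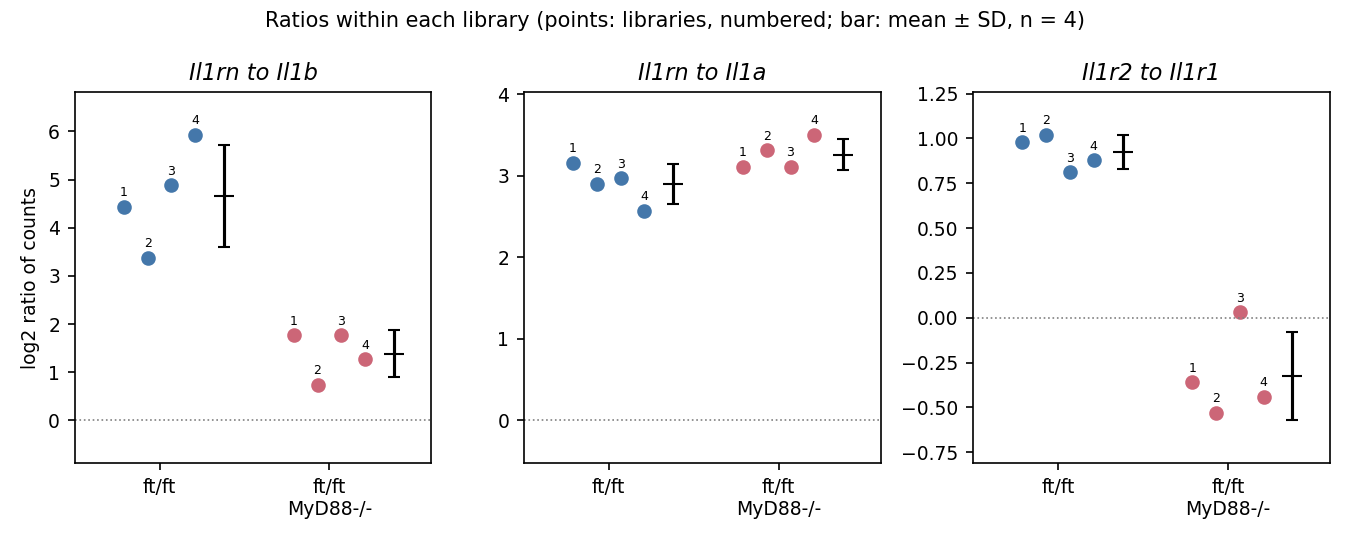
Log2 ratio of counts within each library for Il1rn to Il1b, Il1rn to Il1a and Il1r2 to Il1r1; points are libraries labelled with their replicate number, bars are mean ± SD (n = 4) and the dotted line marks equal counts. The groups are apart for Il1rn to Il1b (4.66 against 1.39) and for Il1r2 to Il1r1 (0.93 against -0.32), and overlap for Il1rn to Il1a.

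After the group means were removed, Il1b and Il1rn varied together over the 8 libraries (Pearson r = 0.89 on log2 CPM, and 0.91 without ft/ftMyD88-/- replicate 2). This is a description over libraries that share depth and tissue composition, and it was among the 3 highest of 45 pairs of the 10 genes. Of 11935 genes with a mean of at least 5 CPM, the 5 whose within-group pattern was most like that of Il1b were Krt18, a keratin of simple epithelia (r = 0.99), Mapk11, Dctn6, Stap2 and Smc4 (r = 0.94 to 0.95). As the highest of 11935 values over 8 libraries, these r are large by selection and were not tested.

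Il18 encodes IL-18, which epidermal cells hold as a precursor (chr9:50554700-50581841, GRCm38.p6). It had 45.6, 42.0, 33.1 and 33.5 CPM in ft/ft and 27.4, 24.3, 31.3 and 46.2 CPM in ft/ftMyD88-/-. Replicates 1 to 3 of ft/ftMyD88-/- lay below all ft/ft libraries, and replicate 4 lay above them. The log2 fold change was -0.26 (95% interval -0.69 to 0.17, adjusted p = 0.366, edgeR). Without ft/ftMyD88-/- replicate 4 it was -0.47 with an adjusted p of 0.0364 in the same test, so that library decided the call.

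Il33 encodes IL-33, a nuclear alarmin of epithelial and stromal cells (chr19:29925113-29960718, GRCm38.p6). It had 38.8, 38.3, 29.8 and 28.0 CPM in ft/ft and 31.6, 97.8, 34.2 and 48.5 CPM in ft/ftMyD88-/-. Replicate 2 was far above all others, replicate 4 also lay above ft/ft, and replicates 1 and 3 fell within its range. The log2 fold change was 0.65 (95% interval -0.26 to 1.57, adjusted p = 0.274, edgeR) and 0.18 without that library.

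Il1r1 encodes the signalling receptor chain for both forms of IL-1. It had 35.6, 31.5, 38.8 and 35.0 CPM in ft/ft and 44.8, 57.0, 43.1 and 45.1 CPM in ft/ftMyD88-/-. All ft/ftMyD88-/- libraries were above all ft/ft libraries, and replicate 2 was the highest. The ft/ft mean was 35.2 ± 3.00 CPM and the ft/ftMyD88-/- mean 47.5 ± 6.41 CPM (SD, n = 4 each; log2 fold change 0.43, SE 0.107, adjusted p = 0.0121, edgeR). The call held in all 8 fits that left out a library, whereas without both libraries numbered 2 the log2 fold change was 0.28 with an adjusted p of 0.0775 in edgeR.

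Il1r2, the decoy receptor, had 70.3, 63.9, 68.2 and 64.6 CPM in ft/ft and 34.9, 39.5, 44.0 and 33.3 CPM in ft/ftMyD88-/-. The groups were far apart and each was narrow. The means were 66.8 ± 3.02 and 37.9 ± 4.80 CPM (SD, n = 4 each), 1.76-fold lower in ft/ftMyD88-/- (log2 fold change -0.82, SE 0.0974, adjusted p = 2.24e-04, edgeR). Il1r2 kept its call in every fit that left out a library, with log2 fold changes of -0.88 to -0.75.

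Il1rap encodes the chain that IL-1, IL-33 and IL-36 receptors share (chr16:26581509-26730128, GRCm38.p6). It had 35.3, 36.7, 38.2 and 33.8 CPM in ft/ft and 22.0, 25.4, 24.5 and 23.9 CPM in ft/ftMyD88-/-. No libraries overlapped, and the spread in each group was small. It was 1.50-fold lower in ft/ftMyD88-/- (36.0 ± 1.87 and 24.0 ± 1.42 CPM, SD, n = 4 each; log2 fold change -0.59, SE 0.0870, adjusted p = 7.86e-04, edgeR), and -0.61 to -0.54 in the fits that left out a library. Gene counts did not separate its membrane and soluble forms.

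The balance of decoy to signalling receptor shifted within the libraries. The log2 ratio of Il1r2 to Il1r1 counts was 0.98, 1.02, 0.81 and 0.88 in ft/ft and -0.36, -0.53, 0.03 and -0.44 in ft/ftMyD88-/-. Counts of Il1r2 were 1.76 to 2.03 times those of Il1r1 in ft/ft and 0.692 to 1.02 times in ft/ftMyD88-/-. These are ratios of counts without correction for length, and only their difference between the groups is compared. Per kb of exon, Il1r2 was above Il1r1 in every library of both groups (17.5 to 23.0 and 6.78 to 8.96 CPM per kb in ft/ftMyD88-/-). That order assumes that counts grow with exon length, which is uncertain for these libraries. The means were 0.93 ± 0.09 and -0.32 ± 0.25 (SD, n = 4 each), a difference of -1.25.

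Markers of several resident cell types were also lower beside Il1r2 and Il1rap. Of 7 basal keratinocyte markers, 5 were called lower and 0 higher (Krt15, log2 fold change -1.36; Krt5, -0.67), with a median of -0.59, whereas Krt14 was at 0.05. Their summed level was 14020 to 17180 CPM in ft/ft and 9838 to 12060 CPM in ft/ftMyD88-/-. Markers called lower were also 8 of 10 for skeletal muscle (median -0.96), 3 of 6 for fibroblasts (-0.75) and 7 of 10 for sebocytes (-0.52), with 0 called higher in each. The same held for 3 of 7 suprabasal keratinocyte (-0.36) and 3 of 6 endothelial markers (-0.38). Of 8 markers of growing (anagen) hair follicles, 3 were called higher and 0 lower, with a median of 1.79. Their summed level was 1211 to 1942 CPM in ft/ft and 1625 to 10310 CPM in ft/ftMyD88-/-. None of 4 stress keratins (0.4) or 6 adipocyte markers (-0.13) was called. Over all genes tested, 10.9% were called higher and 12.3% lower. The part of any of these cell types in the falls of Il1r2 and Il1rap was not tested.

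Il1rl1 encodes ST2, the IL-33 receptor chain of mast cells, regulatory T cells and type 2 innate lymphoid cells. It had 3.13, 3.49, 3.96 and 3.22 CPM in ft/ft and 4.34, 37.5, 5.72 and 9.21 CPM in ft/ftMyD88-/-. Every ft/ftMyD88-/- library was above every ft/ft library, and replicate 2 was far above the rest. The means were 3.45 ± 0.373 and 14.2 ± 15.7 CPM (SD, n = 4 each) and the difference did not pass (log2 fold change 2.05, SE 0.763, adjusted p = 0.104, edgeR). Without ft/ftMyD88-/- replicate 2 the log2 fold change was 0.89 and passed (adjusted p = 0.0249, edgeR; mean 6.42 ± 2.51 CPM, n = 3 libraries); DESeq2 on all 8 libraries gave 2.06 and an adjusted p of 0.0169. Gene counts did not separate membrane from soluble ST2.

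Il33 and Il1rl1, ligand and receptor, were both highest in ft/ftMyD88-/- replicate 2. Their within-group r was 0.93 over 8 libraries and 0.62 without that library, and for Il1r1 and Il1rl1 it was 0.81 and 0.18. That library was the highest of its group for 6 of the 10 genes (Il1b, Il33, Il1r1, Il1rap, Il1rl1 and Il18r1). Among markers of cells known to carry ST2, it was the highest of its group for 2 of 9 mast cell genes (Fcer1a, 2.17 CPM, and Hdc, 12.3 CPM) and for 3 of 7 genes of regulatory T cells and type 2 innate lymphoid cells (Ikzf2, 15.7 CPM; Il2ra, 5.37 CPM; Tnfrsf18, 6.54 CPM). Summed over each list, the mast cell markers were 158.1 CPM there (113.7 to 184.1 CPM over the group) and the other markers 85.7 CPM (85.7 to 109.7 CPM), most of it Gata3. Between the groups, 2 of 9 mast cell markers were called higher (Fcer1a, log2 fold change 3.08; Hdc, 0.98) and 0 lower, with a median of 0.44. Of the 7 other markers, 2 were called higher (Il2ra, 1.39; Foxp3, 1.08) and 1 lower (Ikzf2, -0.44), with a median of 1.08. Over all genes tested, 10.9% were called higher and 12.3% lower. The part of these cells in the level of Il1rl1 was not tested.

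Il18r1 encodes the IL-18-binding chain and starts 133 bases after the end of Il1rl1. It had 10.6, 10.2, 8.87 and 8.70 CPM in ft/ft and 7.67, 9.41, 8.74 and 8.72 CPM in ft/ftMyD88-/-. The groups overlapped (log2 fold change -0.15, 95% interval -0.42 to 0.12, adjusted p = 0.406, edgeR).

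Of the receptor genes, 6 lie together on chromosome 1, over 467 kb on GRCm38.p6, and neighbours moved in different directions. In order along the chromosome, Il1r2 (chr1:40084692-40125230) was lower, Il1r1 (chr1:40222480-40316201) was higher, Il1rl2 was not called, Il1rl1 (chr1:40404864-40465418) and Il18r1 (chr1:40465552-40500854) were not called, and Il18rap was higher.

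Ranking by exon length assumes that counts grow with length, which is uncertain because the route to the counts is. Relative to exon length, Il18 was the most abundant of the 10 genes in ft/ft, at 37.4 CPM per kb of exon. Il1r2 followed at 35.0, within the spread of Il18. Il1rn (12.9) and Il33 (11.7) were next and overlapped each other, Il1r1 (5.53) and Il1a (4.82) overlapped, and then came Il1rap (3.17), Il1b (1.99) and Il18r1 (1.99), each overlapping its neighbour. Il1rl1 was the lowest, at 0.50 CPM per kb, below Il18r1 without overlap but within the wide range of Il1b (0.482 to 4.56). In ft/ftMyD88-/- Il1b had moved from rank 8 to rank 4 at 16.3 CPM per kb, and its libraries overlapped those of Il33 (18.4) above it and Il1rn (13.9) below it. Il18 (31.4) still led Il1r2 (19.9), now without overlap.

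Of the other ligands and receptors of the family, 9 were present and tested. Among them, 3 were called higher and 0 lower, beside 10.9% and 12.3% of all genes tested. The median log2 fold change was 0.48. The largest change was that of an IL-36 agonist: Il1f6 (IL-36 alpha) had 10.0 to 41.1 CPM in ft/ft and 62.8 to 145.4 CPM in ft/ftMyD88-/- (log2 fold change 2.07, adjusted p = 0.0459, edgeR), and Il1f8 (IL-36 beta) had 12.6 to 27.9 and 29.7 to 56.9 CPM (1.03, adjusted p = 0.0326). Il18rap, the signalling chain that joins Il18r1, rose by 1.05 on the log2 scale (1.42 ± 0.513 CPM in ft/ft, 2.92 ± 0.784 CPM in ft/ftMyD88-/-; adjusted p = 0.0191, edgeR). The libraries of the groups did not overlap for these 3 genes, but leaving out a library ended the call in 7 of 8 fits for Il1f6 (all but that without ft/ft replicate 2; highest adjusted p 0.104, edgeR), in 4 for Il1f8 (ft/ft replicates 1, 3 and 4 and ft/ftMyD88-/- replicate 1; highest 0.0851) and in 3 for Il18rap (ft/ft replicates 1 and 4 and ft/ftMyD88-/- replicate 2; highest 0.0605).

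The remaining 6 were not called. The log2 fold changes were 0.62 for Il1f9 (IL-36 gamma), 0.48 for Il1f5 (the IL-36 receptor antagonist), 0.35 for Il1f10 (IL-38), 0.16 for the IL-18-binding protein Il18bp, -0.01 for the IL-36 receptor Il1rl2 and -0.20 for Sigirr, an inhibitory receptor. For Il1rl2 the 95% interval was narrow, -0.19 to 0.16, and its sign changed with the scaling. Il1f9 and Il1f5 passed without ft/ft replicate 2, at log2 fold changes of 0.91 and 0.61 (adjusted p = 0.00855 and 0.0478, edgeR).

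**Figure D3:**
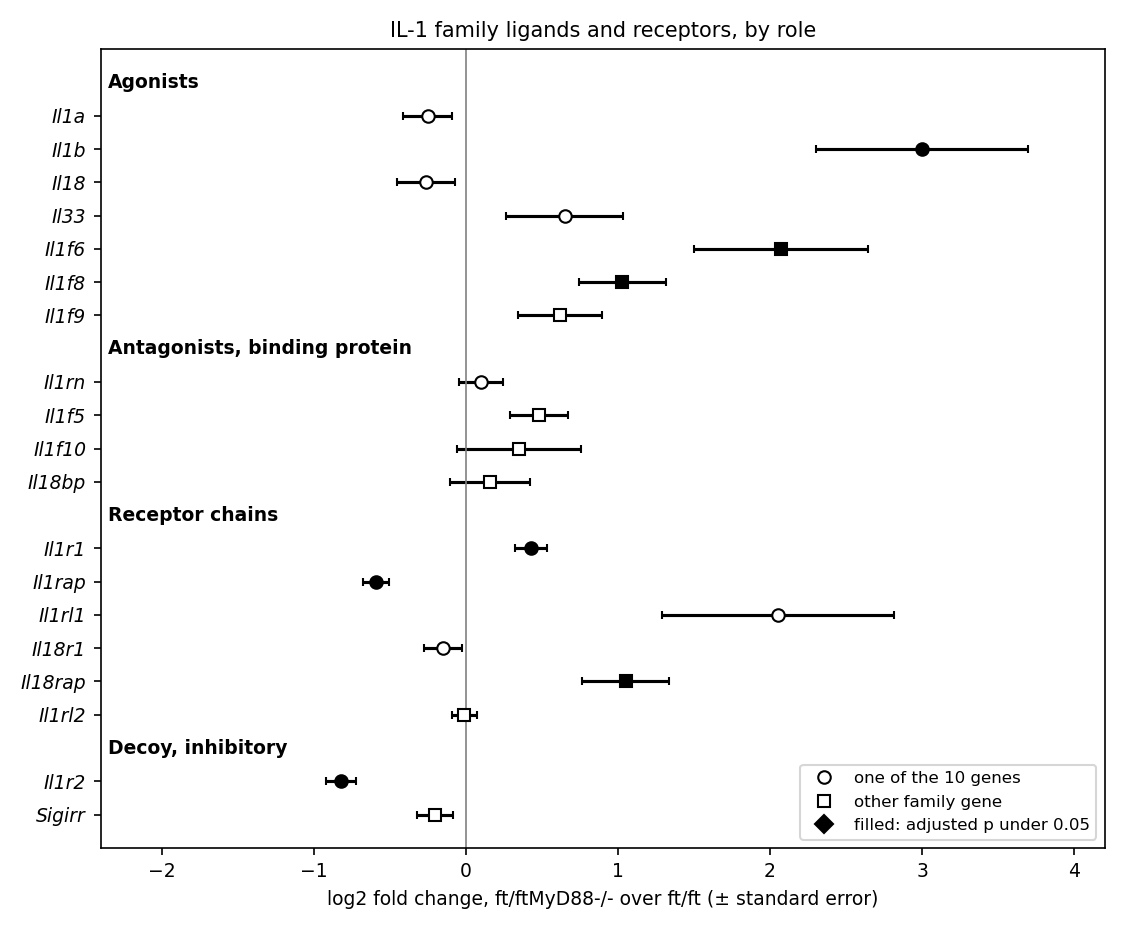
Log2 fold change of ft/ftMyD88-/- over ft/ft with its standard error for the 10 genes (circles) and 9 other family genes (squares), grouped by role; filled symbols have an edgeR adjusted p under 0.05. Agonists span -0.26 (Il18) to 3.00 (Il1b), Il1r1 (0.43) and Il1rap (-0.59) lie on opposite sides of 0, and the decoy Il1r2 is at -0.82.

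Genes that mature and release IL-1 moved in both directions. Of 18 tested, 5 were called higher (Nlrp3, Aim2, Casp1, Casp4 and Ctsg) and 3 lower (Nlrp10, Prtn3 and Capn1). The median log2 fold change was 0.52, and the shares over all genes tested were 10.9% higher and 12.3% lower. Nlrp3, the inflammasome sensor, averaged 0.557 ± 0.550 CPM in ft/ft and 2.27 ± 0.828 CPM in ft/ftMyD88-/- (SD, n = 4 each), a rise of 1.97 on the log2 scale (adjusted p = 0.0187, edgeR). Aim2, the DNA sensor, averaged 1.12 ± 0.151 and 4.07 ± 0.828 CPM, a rise of 1.85 (adjusted p = 1.66e-04, edgeR). Leaving out replicate 2 of ft/ft, the group's highest library for Nlrp3, gave 3.00 for that gene, and leaving out replicate 1 ended its call (adjusted p = 0.0513, edgeR; just under 0.05 without replicate 3 or 4). Casp1, which cleaves IL-1 beta and IL-18, rose by 0.56 on the log2 scale. Ctsg was near the floor, with 0 to 5 counts per library in ft/ft and 8 to 13 in ft/ftMyD88-/-. Nlrp10, an epidermal member of the same sensor family, fell from 73.5 ± 14.2 to 28.1 ± 4.11 CPM (log2 fold change -1.39).

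Among 27 genes of the signalling route below the receptors, 2 were called higher and 4 lower, beside 10.9% and 12.3% of all genes tested. The median was 0.04. Myd88 (log2 fold change 0.42, adjusted p = 0.0484, edgeR) and Irak3, the inhibitory IRAK-M (0.51, adjusted p = 0.0163), were higher. Tollip, an inhibitory adaptor (-0.46), Irak1 (-0.31), Rela (-0.32) and Mapk9 (-0.35) were lower. The Myd88 libraries of the groups overlapped, and its call was lost in 6 of the 8 fits that left out a library, all but those without ft/ft replicate 2 or ft/ftMyD88-/- replicate 3 (highest adjusted p 0.135, edgeR). Irak3 missed the threshold without replicate 3 or 4 of ft/ft (highest 0.0527).

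Genes known as IL-1 family targets were mostly higher. Of 24 tested, 13 were called higher and 0 lower, beside 10.9% and 12.3% of all genes tested. The median log2 fold change was 1.50. Cxcl1 and Cxcl5, which attract neutrophils, rose by 3.59 and 4.45 on the log2 scale (adjusted p = 8.16e-04 and 0.0212, edgeR), and the acute-phase gene Saa3 rose by 4.83 (adjusted p = 0.0251). Saa3 was 65.4 CPM in ft/ftMyD88-/- replicate 2, against 4.73 to 19.9 CPM in the rest of the group and 0.230 to 1.82 CPM in ft/ft. The call was lost for Saa3 without ft/ft replicates 1, 3 or 4 or ft/ftMyD88-/- replicate 4 (highest adjusted p 0.0713, edgeR), and for Cxcl5 without ft/ft replicates 1, 3 or 4 (highest 0.0613). Icam1, Vcam1, Mmp3, Mmp9 and Tnf were among the 11 that did not pass. The targets also respond to signals outside the IL-1 family, and the paper reports a raised IL-17 pathway in this skin. Here Il17a rose by 4.27 on the log2 scale (mean 0.110 CPM in ft/ft, 2.33 CPM in ft/ftMyD88-/-; adjusted p = 5.37e-04, edgeR). Il17f rose by 4.08 (0.194 and 3.75 CPM, adjusted p = 0.00834, edgeR). Which signal raised the targets was not tested. Over the 4 lists together, 23 of 78 genes tested were called higher and 7 lower, with a median of 0.36. The number called higher dropped to 13 when ft/ft replicate 1 was left out, and to 14 for replicate 3 or 4 of ft/ft.

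**Figure D4:**
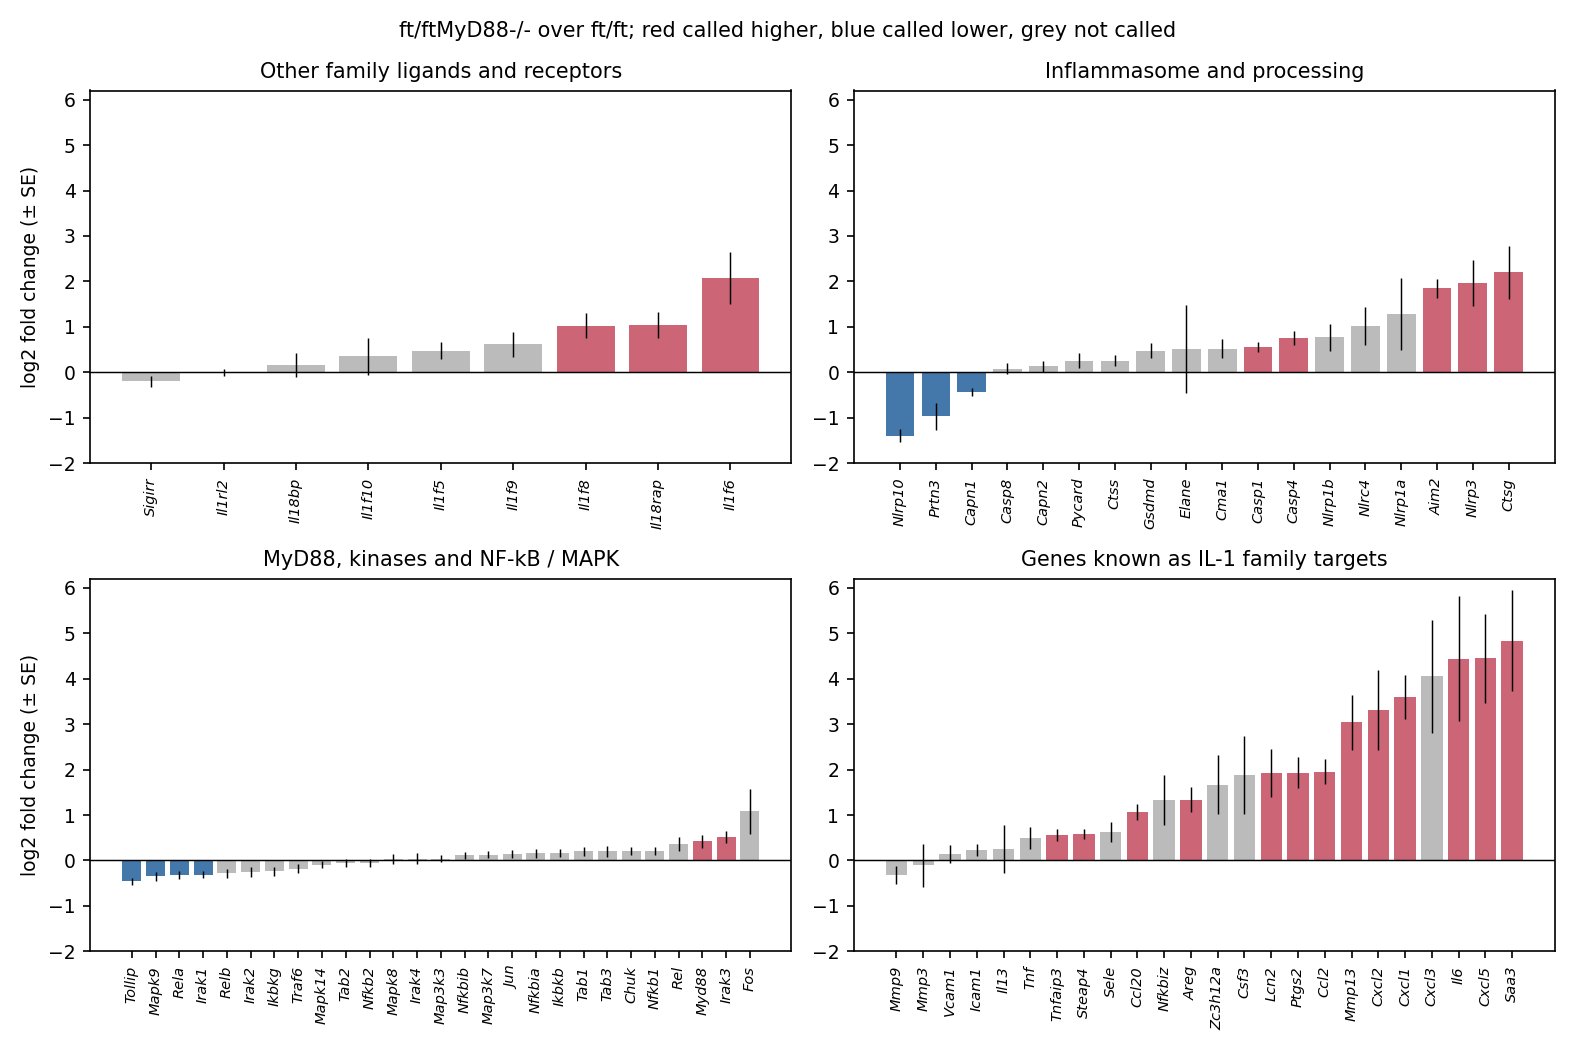
Log2 fold change of ft/ftMyD88-/- over ft/ft with its standard error for every tested gene of the 4 pathway lists, each bar 1 gene; red bars were called higher, blue lower and grey not called at an edgeR adjusted p under 0.05. The signalling genes stay between -0.46 and 1.08, whereas the target genes reach 4.83.

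Markers of neutrophils and of macrophages, cells known to produce IL-1 beta, are given beside Il1b. The shares called over all genes tested were 10.9% higher and 12.3% lower. Of 7 neutrophil markers tested, 2 were called higher (Csf3r and Cd177), 0 lower and 5 did not pass, with a median log2 fold change of 1.55. Their summed level was 55.4 to 140.3 CPM in ft/ft and 54.8 to 395.7 CPM in ft/ftMyD88-/-, with replicate 3 of the latter below all ft/ft libraries, and most of it was Ltf, which glandular epithelium also makes. The neutrophil granule gene Ngp had at most 3 counts in every library. Of 12 macrophage and monocyte markers, 4 were higher (Lyz2, Ccr2, C1qa and Fcgr1), 0 lower and 8 did not pass, with a median of 0.26 and summed levels of 611.7 to 783.3 and 837.5 to 1162 CPM, whereas the log2 fold changes of Adgre1, Cd68, Csf1r and Ly6c2 were -0.03, -0.11, -0.21 and -0.13. The part of these cells in the rise of Il1b was not tested.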

How the data were processed

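Gene counts of eye-region skin from 4 ft/ft and 4 ft/ftMyD88-/- mice were used as deposited by the authors, with no normalization. The study's methods name poly(A) libraries, HISAT and TopHat2 alignment and HTSeq counting, whereas the labels of these 8 samples name a fixed-tissue protocol and Cell Ranger with GRCm38, so the route to the counts, strand setting included, is uncertain. Of 21247 genes, the 20454 whose counts over all 8 libraries reached 10 were tested two-sided with edgeR 4.0.16 in R 4.3.3 (TMM, robust quasi-likelihood fit, Benjamini-Hochberg adjustment over all genes tested, threshold 0.05). Exon lengths were unions of annotated exons, and ratios used counts plus 0.5. The study gives 4 mice a group, which matches 1 mouse a library. No libraries were duplicates (lowest chi-square per degree of freedom 15.1). On simulated data for this comparison (20178 genes tested), 200 of 200 genes changed by 2 on the log2 scale were called. So were 5 unchanged genes. The changed genes were drawn only from genes with high counts, and all genes were given the same relative spread between libraries. The simulation therefore gives no measure of how often a gene with few counts or a wide spread would be called. In the real libraries Il1rl1, at a log2 fold change of 2.05, was not called (adjusted p = 0.104, edgeR). DESeq2 1.42.0, limma 3.58.1, other scalings and filters, a replicate block and left-out libraries were alternatives. The 10 genes and the lists were chosen with earlier results of these data known. Values are given for all 10 and for the family list. From the other lists, values are given for the 3 largest called changes at a mean of at least 1 CPM and for examples chosen after their values were seen.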

Additional observations from a re-analysis of the deposited data

Results flagged for a closer look

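Single libraries stood apart from the other 3 of their group in 9 of the 56 gene-by-group sets of 4 libraries (28 named genes in 2 groups). For independent, normally distributed values chance alone sets about 1 in 20 apart. These sets share the same libraries and some genes were chosen for large changes, so no excess over chance can be read from the count. Among the 10 genes, Il1r1 (57.0 CPM against 43.1 to 45.1) and Il1rl1 (37.5 CPM against 4.34 to 9.21) were high in ft/ftMyD88-/- replicate 2, and Il1rn was low in ft/ftMyD88-/- replicate 3 (65.2 CPM against 79.7 to 81.7). Among the other ligands and binding proteins, Il1f6 was high in ft/ftMyD88-/- replicate 4 (145 CPM against 62.8 to 69.3), Il1f10 was low in ft/ft replicate 3 (4.8 CPM against 6.86 to 7.16) and Il18bp was high in ft/ft replicate 1 (1.71 CPM against 1.23 to 1.31). In ft/ft replicate 2, where Il1a, Il1b and Il1rn were also at their highest of the group, Nlrp3 (1.38 CPM against 0.268 to 0.3) and Irak3 (27.7 CPM against 18.2 to 19.8) were high. Nlrp10 was high in ft/ft replicate 1 (94.6 CPM against 64.1 to 68.5).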

How the results depend on the processing

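Of 160 values for the 10 genes under alternative settings, 150 kept their direction and their side of the threshold, 5 lost a call, 4 gained one and 1 reversed: Il18r1, at 0.03 with library size only. Il1rl2 also reversed, at 0.00 with RLE scaling, 0.16 with library size only and 0.02 without both libraries numbered 2 (an alternative chosen after seeing the data), and ran from -0.05 to 0.04 when a library was left out; Il1f10 ran from -0.07 to 0.64. Library size only shifted the median of all genes by 0.18 on the log2 scale, which raised the pathway genes called higher from 23 to 43, lowered those called lower from 7 to 3, and gave 4638 genes higher and 1326 lower over the whole table, where TMM gave 2239 and 2525. When a library was left out, 1 to 2 of the 10 genes were called higher, 13 to 27 pathway genes were called higher and 1464 to 2260 of all genes were called higher. Replicate numbers did not pair the samples (r of same-numbered deviations -0.31 to 0.06; 1 of 4 ft/ft libraries was most like its own number), and with a replicate block 2 of the 10 genes were called higher and 2 lower, as without it. Il1f6 and Il1f8 lost their calls under the block (adjusted p = 0.127 and 0.0535, edgeR). The intervals given for Il1a, Il1rn, Il18 and Il33 span the differences that 4 libraries a group left possible. No limit of detection was computed.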
